A study of Mus musculus with 15 samples.

Results

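The Myc binding sites called 2 h after Myc activation were compared with those called 30 min after it, in mouse 3T9 fibroblasts profiled by chromatin immunoprecipitation and sequencing (ChIP-seq). All 27388 Myc peaks of the 2 h library and all 22996 of the 30 min library were taken, 50384 of the 397327 peaks in the 20 peak lists of the series. A peak was placed in the class called at both times when a peak of the other list overlapped it by at least 1 bp, and otherwise in the class called at 2 h only or at 30 min only. The series followed Myc and RNA polymerase II (RNAPII) over 6 times between 0 min and 4 h, and mapped Miz1, a zinc finger partner of Myc, in the fibroblasts and in B cells. The 2 h cells had received 400 nM 4-hydroxytamoxifen (OHT) for 2 h and the 30 min cells the same dose for 30 min, and in both Myc was precipitated with antibody N262 and RNAPII with antibody N20. Both came from one line of embryonic fibroblasts (E13.5) with both c-myc alleles floxed, infected with the MycER construct, so the comparison holds for this line. The 0 min library, from the same line, served as the state before OHT. Each time is 1 library. No difference between times therefore has a replicate check, no p-value is given, and every value compares these libraries rather than the conditions.

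Myc is a transcription factor that binds DNA as a dimer with Max and prefers the E-box, the hexamer CACGTG, with variants such as CACGCG and CACATG bound less well. It occupies most active promoters in proliferating fibroblasts and activates genes of ribosome and nucleotide synthesis, while with Miz1 it can repress cell cycle inhibitors. MycER is Myc fused to a hormone-binding domain of the oestrogen receptor, which keeps it inactive until OHT binds. Antibody N262 is not described in the labels as separating MycER from endogenous Myc, so peaks are not assigned to either protein.

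The strongest E-box sites of each class are shown first, because the classes differ in how often their summits carry this motif. All sequences are from the plus strand of mouse build mm9 (NCBIM37), are centred on the E-box nearest to the summit and have CACGTG in capitals. Of the 6 peaks with the highest fold enrichment among those called at 2 h only with CACGTG in the 200 bp around the summit, the following 5 are shown, the one near Slc47a2 lying in an untranslated exon part and given as 30 bp.
near Gm8603, chr17:13685626-13685675: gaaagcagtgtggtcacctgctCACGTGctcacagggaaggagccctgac
near Smarcal1, chr1:72640206-72640255: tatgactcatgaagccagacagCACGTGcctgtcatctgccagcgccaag
near Slc47a2, chr11:61162984-61163013: aaagccaggaagCACGTGgtctgacaggta
near Gm6772, chr12:88122701-88122750: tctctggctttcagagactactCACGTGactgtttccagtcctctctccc
near C630050I24Rik, chr8:109658001-109658050: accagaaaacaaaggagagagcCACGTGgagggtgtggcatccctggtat
The 3 highest peaks called at 30 min only gave the following sites. The first is a tandem repeat with 5 copies of CACGTG in the 200 bp around the summit.
near Nlrp4c, chr7:6025983-6026032: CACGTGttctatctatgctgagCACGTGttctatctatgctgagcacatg
near Ankrd1, chr19:36289287-36289336: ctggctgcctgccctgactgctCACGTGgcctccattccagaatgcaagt
near Camta1, chr4:150443052-150443101: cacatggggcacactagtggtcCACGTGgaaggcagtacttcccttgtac
The 3 highest peaks called at both times, ranked at 2 h, gave the following.
Cmc1 promoter, chr9:118059449-118059498: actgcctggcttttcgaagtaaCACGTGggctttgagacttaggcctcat
near Nsd1, chr13:55291769-55291818: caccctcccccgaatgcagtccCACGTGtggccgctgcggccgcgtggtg
Ears2 and Ubfd1 promoter, chr7:129210491-129210540: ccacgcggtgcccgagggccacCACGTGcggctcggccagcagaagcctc
The sites called at 2 h only had 14.2 to 15.8-fold enrichment over local background and 66 to 119 tags, and 5 of the 6 lay outside promoters. The sites called at both times had 138 to 140-fold enrichment and 977 to 1172 tags at 2 h. A tag is 1 sequenced end kept by the peak caller, and fold enrichment is the caller's own value within its list. The E-box itself is the same in every class, at sites that differ widely in these values.

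Depth was close in the pair of libraries, with 33148944 tags at 2 h and 33328832 at 30 min after filtering. The 2 h peaks covered 53.1 Mb and held 18.3% of the tags of their library, and the 30 min peaks covered 41.9 Mb and held 12.7%. In the other Myc libraries, of 28131340 to 33430693 tags, the 0 min peaks held 9.26% of their tags, those of 10 and 20 min 14.7% and 16.3% and the 4 h peaks 14.3%, so the share was highest at 2 h and, after OHT, lowest at 30 min. The RNAPII libraries held 19859254 tags at 2 h and 16274406 at 30 min. RNAPII promoter peaks were present at 2 h and at 30 min for 17 and 16 of 24 fibroblast matrix genes. For 97 markers of B cells, T cells and myeloid cells, neurons, hepatocytes and epithelium the numbers were 12 and 11. Over all 22219 protein-coding genes the shares were 46.3% and 46.4%.

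Most Myc sites were shared. Of the 2 h peaks, 5295 (19.3%, Wilson 95% interval 18.9 to 19.8) had no 30 min peak over them, while of the 30 min peaks 552 (2.40%, 2.21 to 2.61) had no 2 h peak over them. Intervals here and below cover counting error only. Because the 2 h list was longer, the 22996 peaks of highest score in each list were also compared. The shares were then 8.86% at 2 h and 7.23% at 30 min. Over the 20 chromosomes, the share called at 2 h only ranged between 16.8% and 21.9%.

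The sites called at 1 time only were weak. The caller's score rises with the −log10 of its p, has a minimum of 80.0 in both lists, and was used to cut each list into 10 deciles of like size. In the weakest decile of the 2 h list 79.2% of peaks were called at 2 h only, in the next deciles 59.4%, 36.8%, 14.5% and 3.03%, and in the 4 strongest deciles 2 of 10955 peaks. In the 30 min list 381 of the 552 peaks called at 30 min only lay in the weakest decile and none in the 5 strongest deciles. Peaks called at 2 h only had a median of 64.0 tags and 7.08-fold enrichment, and those called at both times 179 tags and 16.1-fold in the same list. Peaks called at 30 min only had a median of 52 tags and 6.42-fold enrichment, and the shared peaks of that list 127 tags and 12-fold.

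**Figure D1:**
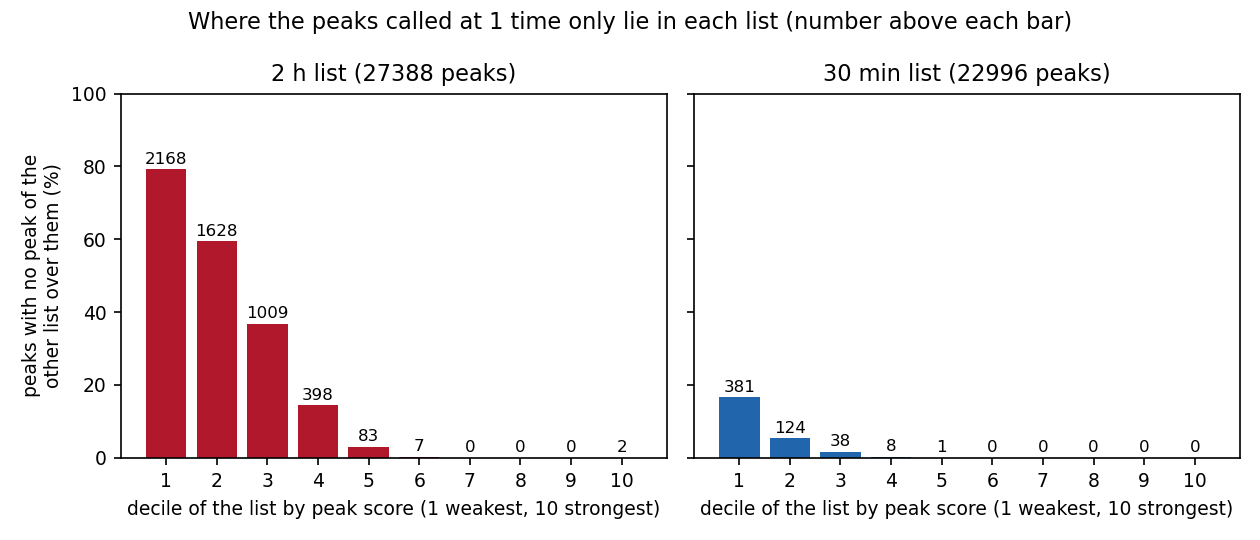
Share of peaks with no peak of the other list over them (vertical axis, %), by decile of the list ordered by peak score (horizontal axis), for the 2 h list on the left and the 30 min list on the right; numbers above the bars are peaks. In the 2 h list 79.2% of the weakest decile was called at 2 h only, and in both lists the bars end near 0 from the middle of the list on, apart from 2 peaks in the strongest decile of the 2 h list.

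The overlap rule left few close cases. Of the peaks called at 2 h only, 478 had a 30 min peak within 1000 bp, with a median of 66.0 tags, and 18 peaks counted as shared overlapped by only a minor part of the shorter peak, with a median of 68.5 tags. For the 30 min list these numbers were 53 peaks with a median of 52 tags and 5 peaks with 53.0 tags. Another 442 peaks of the 2 h list spanned 2 or more 30 min peaks, and 102 peaks of the 30 min list spanned 2 or more 2 h peaks.

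Sites called at 2 h only lay mostly away from promoters. Their summits lay within 1000 bp of an annotated transcription start site (TSS) in 14.7% (13.7 to 15.7) of cases, against 43.5% (42.8 to 44.1) for the shared peaks of the 2 h list. Introns held 42.7% of them and intergenic DNA 39.9%, against 27.5% and 27.1% for the shared peaks, and coding exons held 0.774%, against 0.620%. The median distance between summit and TSS was 11809 bp at sites called at 2 h only, 14268 bp at sites called at 30 min only and 2985 bp at shared sites. Sites called at 30 min only resembled those called at 2 h only, with 13.4% (10.8 to 16.5) at promoters and 71.2% more than 5000 bp from any TSS, where the 2 h only class had 67.7% and the shared class 45.0%. Each list was also cut at its own median fold before the overlap. A peak called at 1 time only could then have a peak of lower fold in the other list. These redrawn classes held 2642 peaks at 2 h only and 361 at 30 min only. Their promoter shares were 38.7% and 28.5%, with 59.7% for shared sites, and their median distances were 4643 and 7723 bp. When sites were matched by summits within 500 bp, 7.18% of 30 min peaks were called at 30 min only. The order of the classes then turned, with promoter shares of 19.2% for 2 h only and 34.0% for 30 min only sites and median distances of 10014 and 3542 bp.

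The canonical E-box was less frequent at sites called at 2 h only than at shared sites. CACGTG, a palindrome and so the same on both strands, lay in the 200 bp around the summit of 7.71% (7.02 to 8.45) of the sites called at 2 h only, of 11.4% (9.02 to 14.3) of those called at 30 min only and of 15.2% (14.7 to 15.6) of the shared sites. Windows of the same width 1000 bp to either side held it in 2.48%, 4.08% and 2.64%, and windows around all 45939 protein-coding TSSs in 5.19%. CACGCG, searched on both strands like the motifs that follow, was found at 2.68%, 2.36% and 11.9% of summits in these classes. GGGCGG, the GC box bound by Sp1, was found at 8.84%, 6.70% and 23.1%. In the distal sites, more than 5000 bp from any TSS, CACGTG was found at 7.89% (7.05 to 8.82) of the 2 h only sites, 11.5% (8.67 to 15.0) of the 30 min only sites and 12.9% (12.2 to 13.5) of the shared sites.

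More sites called at 2 h only held TGANTCA than held CACGTG or the GC box. TGANTCA, with N for any base, is a loose form of the element bound by AP-1 dimers of Fos and Jun proteins. It lay around 33.6% (32.4 to 34.9) of the 2 h only summits, against 5.59% of the flanking windows, and around 29.3% of the 30 min only summits and 24.0% (23.4 to 24.6) of the shared summits. Within distal sites the share was 38.8% (37.2 to 40.4) at 2 h only sites and 39.6% (38.6 to 40.6) at shared sites, so the excess over the shared class did not hold there. GGAATG, the core bound by TEAD factors, was found at 18.6% of 2 h only sites and 14.1% of shared sites, and at 10.7% and 10.5% of their flanks. Within distal sites it was found at 20.1% (18.8 to 21.4) and 18.9% (18.2 to 19.7), with intervals that overlapped. Among distal sites of the 2 h only class with TGANTCA, the 4 of highest fold not shown above were taken. All but the one near Nol4 follow, 3 sites, with TGANTCA in capitals and the same build and strand.
near Epha4, chr1:77486190-77486239: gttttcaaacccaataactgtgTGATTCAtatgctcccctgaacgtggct
near Tead1, chr7:119847081-119847130: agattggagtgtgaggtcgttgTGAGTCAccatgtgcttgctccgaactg
near Zc3h15, chr2:83512152-83512201: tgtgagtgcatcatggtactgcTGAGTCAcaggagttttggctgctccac

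At like score, the sites called at 2 h only and the shared sites of the 2 h list had shares whose intervals overlapped. In the second weakest decile, promoters held 13.8% of the 2 h only summits and 13% of the shared ones, TGANTCA lay at 35.6% and 32.8%, and an RNAPII peak of 2 h lay over 12.2% and 12.6%. In the third decile the promoter shares were 17.3% and 16.3% and the RNAPII shares 19.7% and 16.3%, with intervals that overlapped (17.4 to 22.3 and 14.6 to 18.1). Of the 5 weakest deciles the first had the widest gap in CACGTG, at 7.89% (6.83 to 9.10) of the 2 h only sites and 11.4% (9.03 to 14.3) of the shared sites. In each of the 5 weakest deciles of the 2 h list the intervals of the 2 classes overlapped for all 4 measures.

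In the 30 min list the RNAPII shares differed at like score. An RNAPII peak of 30 min lay over 6.82% (4.70 to 9.81) of the 30 min only sites of the weakest decile and over 19.0% (17.3 to 20.8) of the shared ones, over 6.45% (3.31 to 12.2) and 21.8% (20.1 to 23.6) in the second decile, and over none of the 38 30 min only sites (upper limit 9.18%) and 26.9% of the shared ones in the third. CACGTG lay at 12.1% (7.47 to 19.0) of the 30 min only sites and 8.92% (7.79 to 10.2) of the shared sites of the second decile, and in the weakest decile its interval was 8.26 to 14.6% at 30 min only sites, against 7.62 to 10.2% at shared sites. TGANTCA lay at 31.2% and 32.8% in the weakest decile, and at 15.8% (7.44 to 30.4) and 33.6% (31.7 to 35.6) in the third. Promoter intervals overlapped in the 3 weakest deciles, with 13.6% (10.6 to 17.5) and 16.1% (14.5 to 17.8) in the first.

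**Figure D2:**
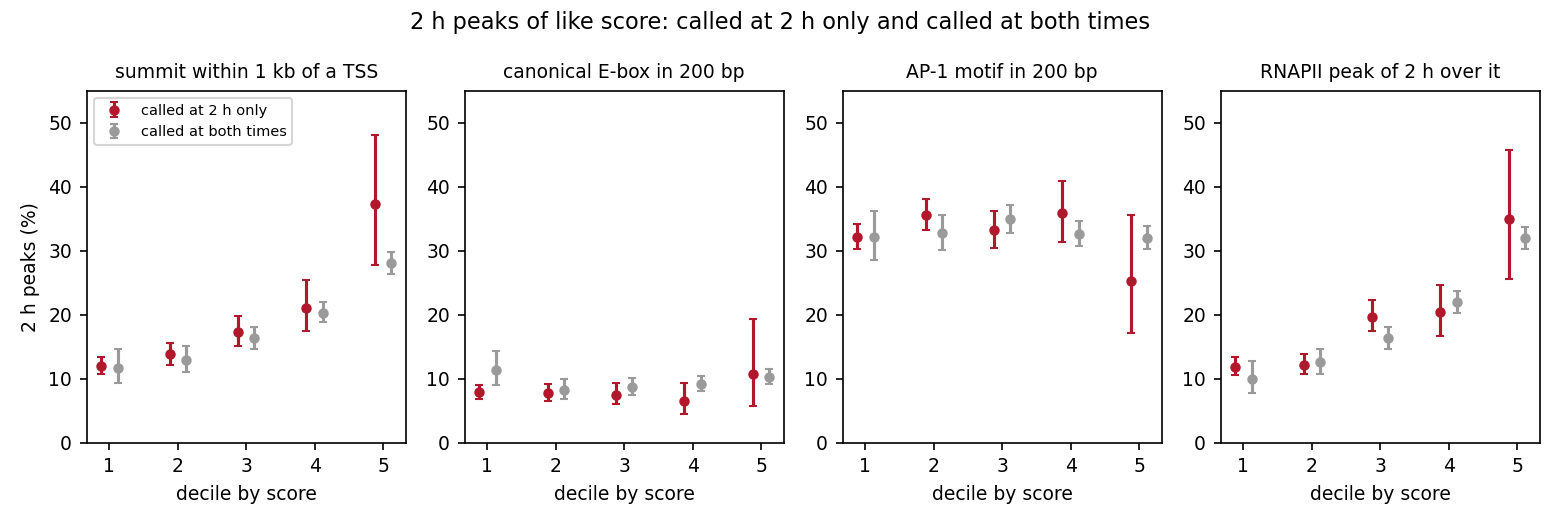
Percent of 2 h peaks (vertical axes) that have their summit within 1 kb of a TSS, a canonical E-box or an AP-1 motif in 200 bp around it, or an RNAPII peak of 2 h over them, by decile of the score for the 5 weakest deciles (horizontal axes); red points are peaks called at 2 h only, grey points peaks called at both times, bars the Wilson 95% interval. In the second decile the promoter shares were 13.8% and 13%, and red and grey intervals overlap in every pair shown.

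Fewer of the sites called at 1 time only had RNAPII over them. A narrow RNAPII peak of 2 h overlapped 14.5% (13.6 to 15.5) of the sites called at 2 h only and 52.5% (51.8 to 53.1) of the shared 2 h peaks. A narrow RNAPII peak of 30 min overlapped 6.52% (4.75 to 8.90) of the sites called at 30 min only and 54.8% (54.2 to 55.5) of the shared 30 min peaks. RNAPII was called at both times over 631 of the 5295 sites called at 2 h only, at 2 h and not at 30 min over 136, and at 30 min and not at 2 h over 219. At the 777 promoter summits of the class, RNAPII of 2 h lay over 39.1% (35.8 to 42.6) and RNAPII of 30 min over 41.3%, against 89.5% and 90.4% at shared promoter summits. Cutting both lists at their median fold redraws the classes, as above. RNAPII then overlapped 47.3% of 2 h only and 33.5% of 30 min only sites. With summits matched within 500 bp the shares were 21.0% and 50.2%, which turns their order. With the broad RNAPII lists they were 8.22% and 2.90%. Miz1 peaks of the fibroblasts overlapped 5.51% of the sites called at 2 h only and 4.53% of those called at 30 min only. Among the shared 2 h peaks they overlapped 15.1%. The Miz1 list was called at a looser p limit of 1e-02 from 10164504 tags, and its sample has no OHT dose or time given.

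Most sites called at 2 h and not at 30 min had been called at an earlier time. Of the 5295 sites, 950 (17.9%) overlapped a peak of 0 min, 2139 (40.4%) one of 10 min, 2879 (54.4%, 53.0 to 55.7) one of 20 min and 1831 (34.6%) one of 4 h. The shares at 20 min and 4 h were 76.0% and 52.3% with equal numbers of peaks. With both lists cut at their median fold they were 99.6% and 98.1%. That class of 2642 peaks takes in sites called at 30 min below the cut. At least 1 of the times 0, 10 and 20 min had a peak at 3492 of the 5295 sites (65.9%, 64.7 to 67.2). No other Myc list had a peak at 1567 (29.6%), and 400 (7.55%) were called at every time but 30 min. Late sites, called at 2 h and 4 h and at none of the 4 earlier times, numbered 236 (4.46%). Sites called at 30 min only were likewise called elsewhere, 44.6% (40.5 to 48.7) of them at 20 min and 36.1% at 4 h. Of the shared 2 h peaks, 83.8% were called at 0 min and 97.2% at 20 min.

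**Figure D3:**
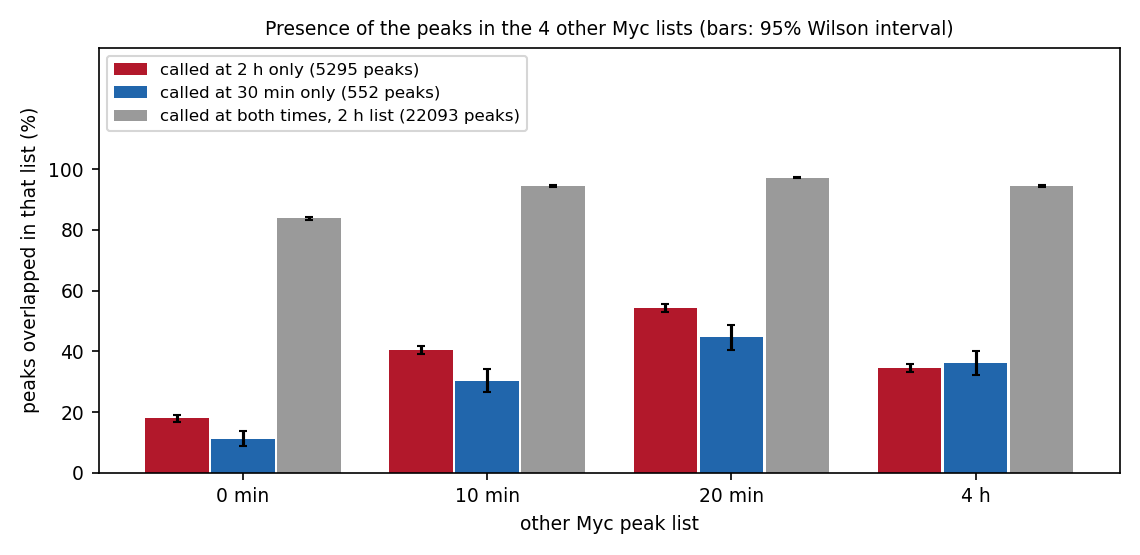
Percent of peaks (vertical axis) that overlap a peak of the 0 min, 10 min, 20 min or 4 h Myc list (horizontal axis), for peaks called at 2 h only (red), at 30 min only (blue) and at both times (grey, 2 h list); error bars give the Wilson 95% interval. Of the peaks called at 2 h only, 54.4% were present at 20 min, and 34.6% at 4 h.

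The late sites were weak and mostly distal, with a median fold enrichment of 7.08, 34 of 236 (14.4%) at promoters, 15 with CACGTG (6.36%, 3.89 to 10.2) and 83 with TGANTCA (35.2%). The highest lay 3632 bp from the TSS of Lefty1, an inhibitor of Nodal signalling, at chr1:182860818-182862178. It had 75 tags at 2 h and 53 at 4 h and held 2 TGANTCA elements. Another, 63 bp from an annotated TSS and 512 bp from that of Slc23a2, a vitamin C transporter, had 62 tags at 2 h and 51 at 4 h. Of the 6 highest, 3 more lay in an intron 72780 bp from the TSS of Ryr2, a calcium release channel, with 2 CACGTG, in a noncoding exon for which Ptpn1 is the nearest protein-coding gene, and in an intron for which it is Stk39. None of the 6 had an RNAPII peak of 2 h or of 30 min over it. Of all 236 late sites, 36 (15.3%, 11.2 to 20.4) had an RNAPII peak of 2 h over them.

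At the 8 distal sites of highest fold called at 2 h only, tags at 2 h lay between 66 and 125, and each of the 8 was called at 10 and 20 min and 7 at 0 min. The site in an intron near Smarcal1, which encodes a DNA annealing helicase, had 60, 61 and 61 tags at 0, 10 and 20 min, no peak at 30 min, 88 tags at 2 h and 47 at 4 h. The intronic site of Epha4, an ephrin receptor, had 58, 57 and 77 tags at the first 3 times, no peak at 30 min, 73 tags at 2 h and 41 at 4 h. The site near Gm8603 had 44, 51 and 45 tags, none called at 30 min, 66 at 2 h and 36 at 4 h. The remaining 5, near Ccdc81, Plekhg3, Fut10, Nol4 and 4930588N13Rik, had the same order of calls, except that the one near Ccdc81 was not called at 0 min and the one near 4930588N13Rik not at 4 h. The choice of sites fixed the calls at 2 h and 30 min but not those at the other 4 times. How far choice by highest fold favours calls at those times was not tested.

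The 5 distal sites of highest fold called at 30 min only had 44 to 77 tags. The first, the tandem repeat shown above in an intron 29165 bp from the TSS of Nlrp4c, had 35 tags at 20 min, 72 at 30 min, no peak at 2 h and 90 tags at 4 h, and no peak at 0 or 10 min. The second, in an intron with Mad1l1 as the nearest protein-coding gene, had 65, 72, 81 and 77 tags at 0, 10, 20 and 30 min, no peak at 2 h and 91 tags at 4 h. The sites near Pvrl1, which encodes the adhesion molecule nectin-1, and Mast4, which encodes a kinase, were called at 20 and 30 min. The site near Slc41a2, which encodes a magnesium transporter, was called at 30 min and 4 h.

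Peaks called at 2 h only were spread over many genes. Genes were ranked by the number of 2 h only peaks nearest to their TSS, which favours high shares. Over all 2 h peaks the share was 19.3%. Myc itself came first, with 12 of 33 peaks of 2 h spread over 1436 kb. Next were Kirrel3 with 10 of 22 over 1369 kb and Sik3, a salt-inducible kinase, with 8 of 15 over 176 kb. The peaks at the Myc promoter were called at both times, with 781 tags at 2 h and 625 at 30 min.

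Counted by gene, Myc at the promoter was nearly the same at both times. Of 22219 protein-coding genes, 10301 (46.4%) had a Myc peak within 1000 bp of a TSS at both times, 556 (2.50%) at 2 h only and 46 (0.207%) at 30 min only. With equal numbers of peaks the counts at 2 h only and at 30 min only were 293 and 140. With both lists cut at their median fold they were 1067 and 102, now with genes whose peak at the other time fell below the cut. With the summit itself within 1000 bp of the TSS the count at 30 min only was 166. Of the 556 genes, 326 had a Myc promoter peak at 20 min, 138 at 0 min, 214 at 4 h and 150 at no other time. RNAPII was called at the promoter at both times for 201 of them (36.2%), at 2 h and not at 30 min for 28, at 30 min and not at 2 h for 31 and at neither for 296 (53.2%). Of the genes with Myc at both times, 9418 (91.4%) had RNAPII at both times.

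Of the 12 genes of highest fold with Myc at the promoter at 2 h only, 10 owed the call to the edge of a peak that was also called at 30 min, with its summit more than 1000 bp from their own TSS. For Rhof, a small GTPase of filopodia, a peak of 7056 bp and 1144 tags at 2 h reached the promoter, and the 30 min peak of 727 tags did not. For Ptpn6, a phosphatase of blood cells, the summit lay 32 bp from an annotated TSS with Grcc10 as the nearest gene, with 520 tags at 2 h and 347 at 30 min. For Urb2, a ribosome biogenesis factor, it lay 30 bp from an annotated TSS with Taf5l as the nearest gene, with 556 and 407 tags. The others of this kind were 9930021D14Rik, 1110002E22Rik, Podn, Dnahc6, Cd7, 1600016N20Rik and Kirrel3. The 2 with a peak of their own were Mycn and Mfhas1.

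Of the 556 genes, 473 had a summit within 1000 bp of their own TSS in a peak called at 2 h only, and those named next were picked once their values were known, from the 14 of highest fold after Mycn. Mfhas1, which encodes a leucine-rich repeat protein, had 71, 57 and 93 tags at 0, 10 and 20 min, no peak at 30 min, 91 tags at 2 h and 60 at 4 h, with CACGTG 26 bp from the summit. Zfp458, a zinc finger gene, had 45, 52 and 48 tags before 30 min, 92 at 2 h and 60 at 4 h. Plxnb1, a semaphorin receptor, had 45, 60 and 65 tags, then 103 at 2 h and 45 at 4 h. Smap2, which acts on Arf GTPases, had 97, 106 and 113 tags, then 145 at 2 h and 96 at 4 h. Gli1, the Hedgehog transcription factor, had 97, 67 and 86 tags, then 114 at 2 h and 73 at 4 h, and no RNAPII promoter peak at any time. Each of these was called at every time but 30 min, as were 78 of all 777 peaks at promoters called at 2 h only (10.0%). Tnfrsf19, a receptor of the TNF family, and Vps13c, a lipid transfer protein, were not called at 0 min and had 73 and 80 tags at 2 h. Ctla2b, Rnaset2a, Otud3 and Arf5, of the same 14, were not called at every other time either.

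Genes with Myc at 30 min only were fewer and their peaks smaller. Pdlim4, an actin-binding LIM protein, led by the edge of a shared peak of 481 tags at 2 h and 428 at 30 min. Fgf21, a metabolic hormone, and its neighbour Fut1, a fucosyltransferase, shared 1 peak with 78, 65, 97 and 49 tags at 0, 10, 20 and 30 min, none called at 2 h and 61 at 4 h. Ugt1a6a and Ugt1a6b, glucuronosyltransferase genes of 1 cluster, shared a peak of 40 tags called at 30 min and at no other time. Nrg2, a growth factor of the EGF family, Fstl3, an activin-binding protein, and B4galt4, a galactosyltransferase, had 37, 38 and 49 tags at 30 min and no peak at the other times. Foxo6, a forkhead factor, and Gm12824 had 39 and 41 tags at 30 min and 47 and 37 at 20 min. RNAPII was called at the promoter at both 2 h and 30 min for 0 of these 10 genes, against 7 of all 46 genes of the class (15.2%). CACGTG was found at 0 of their summits, against 8.11% of the 30 min only peaks at promoters.

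Mycn, which encodes the Myc paralogue N-Myc, stood apart from every other site called at 2 h only. A pair of peaks on chromosome 12 had 755 tags with 95-fold enrichment (chr12:12945838-12947710) and 376 tags with 61.8-fold (chr12:12943481-12944802), while the next highest 2 h only peak reached 17.5-fold. Both summits lay in exons of Mycn, at 12946651 in the exon 12946416 to 12947422 and at 12944191 in the exon 12942902 to 12944416, which places them 2069 and 4529 bp downstream of the first TSS and the stronger one 771 bp from the nearest annotated start. The same exons had peaks of 92 and 55 tags at 0 min, and 1 of them a peak of 52 tags at 10 min, and no peak was called at 20 min, 30 min or 4 h. No RNAPII or Miz1 peak lay within 10000 bp of the gene in any list. The stronger summit held no CACGTG in 200 bp. The origin of these tags was not tested.

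The 6 promoter genes of highest fold among those bound at both times had 693 or more tags at each time. Cmc1, a mitochondrial assembly factor, had 977 tags at 2 h and 872 at 30 min. The shared promoter of Ears2, a mitochondrial tRNA synthetase, and Ubfd1 had 1172 and 904. Igsf8 had 771 and 693, Mtg1, a GTPase of mitochondrial ribosomes, 824 and 760, and Hdgf, a growth factor, 1211 and 1035. Known targets of Myc were bound at both times too. Ncl, the nucleolar protein nucleolin, had 1583 tags at 2 h and 1302 at 30 min with 4 CACGTG in the 200 bp around the summit, and Cad, the enzyme that starts pyrimidine synthesis, had 696 and 554 with 1. Odc1, the first enzyme of polyamine synthesis, had 449 and 335, Cdk4, a cyclin-dependent kinase, 808 and 627, and Cdkn1a, the p21 inhibitor, 332 and 236.

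Gene groups showed the same picture. All 34 ribosome biogenesis genes, all 27 nucleotide synthesis genes, all 25 cell cycle drivers and all 27 immediate-early and AP-1 genes had a Myc promoter peak at both times, against 46.4% of all genes. So did 17 of 18 polyamine and amino acid supply genes and 11 of 14 CDK inhibitors and Myc-repressed genes, with no call at 1 time only. RNAPII promoter peaks of 2 h were called for 33 of 34 ribosome biogenesis genes, against 46.3% of all genes. They were called for all listed nucleotide synthesis, cell cycle and immediate-early genes. RNAPII was called at both times for 91.4% of genes with Myc at both and 3.54% with Myc at neither. The 46.4% is thus not a share over genes with RNAPII. Calls at 2 h only were found for 3 of 14 genes of the Myc, Max and Mlx network, 2 of 21 YAP and TEAD targets, 2 of 25 genes of growth factor signalling, 1 of 18 clock genes, 1 of 20 glycolysis genes, 1 of 24 TGF-beta and BMP genes and 1 of 26 actin and adhesion genes, where all genes gave 2.50%. The network members besides Mycn were Mycl1, which encodes L-Myc, with 70 tags at 2 h, and Mxd1, a Max partner that opposes Myc, with 97, and both had been called at 0 and 20 min. The YAP and TEAD members were Ankrd1, a YAP target of muscle and fibroblasts, with 140 tags at 2 h, and Tead1, the factor itself, with 56, both called at 10 and 20 min. The clock member was Arntl, which encodes BMAL1, with 93 tags at 2 h, 60 at 10 min and 38 at 20 min.

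The growth factor genes were Fgf2, a fibroblast growth factor, with 73 tags at 2 h and 44 at 20 min, and Vegfc, a growth factor of lymphatic vessels, with 49 tags at 2 h and no peak at any other time. Eno2, the neuronal enolase, had 57 tags at 2 h, 46 at 20 min and 39 at 4 h, and its RNAPII promoter peak was called at 10 min, 20 min and 2 h. Bmp1, a procollagen protease, and Myl9, a myosin light chain, had 96 and 61 tags at 2 h and were called at 10 and 20 min as well. Of the 24 fibroblast matrix genes 19 were called at both times and none at 1 time only. Of the markers of other cell types, 1 of 20 B cell, 2 of 20 T cell and myeloid, 2 of 19 neuron, 1 of 20 hepatocyte and 2 of 18 epithelial genes were called at both times. Lck and Csf1r of the T cell and myeloid list and Krt8 of the epithelial list were called at 2 h only and Esrp2, an epithelial splicing factor, at 30 min only, with 42 to 81 tags. Their summits lay 1110 to 1594 bp from the gene's own TSS, so each call came from the edge of a peak. Eno2, named above, was also on the neuron list.

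At shared sites the tags were higher at 2 h almost everywhere and by a similar factor. At the 21483 sites with 1 peak in each list the median was 177 tags at 2 h and 127 at 30 min, with a median ratio of 1.36 (quartiles 1.22 and 1.5), and 94.1% of sites had more tags at 2 h. Peak limits were set in each list on its own, with a median length of 1836 bp at 2 h and 1631 bp at 30 min, and per base the median ratio was 1.22. Over the deciles of the 30 min list the median ratio ran between 1.33 and 1.37. It was 1.38 at promoters, 1.33 at distal sites, and 1.37 and 1.38 at promoters with and without CACGTG. Sites not called at 0 min had a median ratio of 1.23 and those called at 0 min 1.37. The summits of a pair lay a median of 33 bp apart. The share of tags in peaks, 18.3% at 2 h and 12.7% at 30 min, moves with this ratio, and its part in the result was not tested.

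By gene list, the ratio of tags at promoters called at both times had a median of 1.38 over all 10301 genes (quartiles 1.28 and 1.51). Each gene took its promoter peak of highest fold in each list, which need not be the same site at both times. Single ratios ran from 0.143 to 21.1. The median was 1.55 over the 27 immediate-early and AP-1 genes (quartiles 1.38 and 1.74, range 0.684 to 2.56). It was 1.5 over the 18 YAP and TEAD targets (1.35 and 1.69) and 1.49 over the 25 actin and adhesion genes. Over the 34 ribosome biogenesis genes it was 1.29 (1.26 and 1.34). Egr1, an immediate-early transcription factor, had 272 tags at 2 h and 126 at 30 min, and Fos 110 and 71. Cyr61, a matricellular YAP target, had 1479 tags at 2 h and 1019 at 30 min, and Per1, a clock gene, 1845 and 1181. Fbl, the nucleolar methyltransferase fibrillarin, had 1023 and 778, and Npm1, nucleophosmin, 1378 and 1104. The quartiles of the immediate-early list overlapped those of all genes.

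A small set of sites away from promoters ran the other way. Of the 6545 paired sites with at least 200 tags at 30 min, 62 had fewer tags at 2 h than at 30 min and 12 had a ratio under 0.8. These sites were singled out after their values were seen. None of the 12 lay at a promoter, 2 were called at 0 min, none held TGANTCA and 1 held CACGTG, while 10 held 2 or more copies of the noncanonical E-box CACATG (read on either strand) in the 200 bp around the summit and 8 held 6 or more. Over all pairs the median ratio was 1.37 at 15813 sites with no CACATG, 1.33 at 4437 with 1, 1.29 at 967 with 2, 1.25 at 186 with 3, 1.29 at 44 with 4, 1.10 at 15 with 5, and 0.737 at 21 sites with 6 or more (quartiles 0.569 and 0.861). At 17 of these 21 sites tags were lower at 2 h, and per base their median ratio was 0.796. The 21 include the 8 named above, which were picked for their low ratio.

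**Figure D4:**
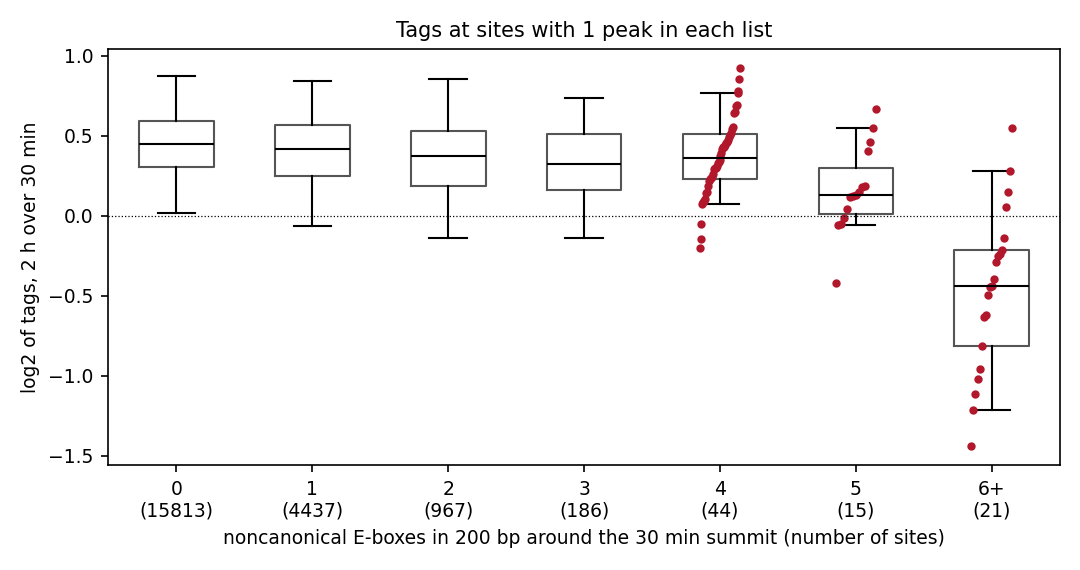
Log2 of the ratio of tags at 2 h over 30 min (vertical axis) by the number of noncanonical E-boxes in the 200 bp around the 30 min summit (horizontal axis, number of sites in brackets); boxes give the quartiles, whiskers the 5th and 95th percentiles, red points single sites in groups under 50. Sites without the element have a median ratio of 1.37, and 17 of the 21 sites with 6 or more lie below 0, the level of equal tags.

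The 6 array sites with the lowest ratios carry the element in tandem repeats, and 100 bp centred on each 30 min summit are shown with CACATG or its reverse complement CATGTG in capitals (mm9, plus strand).
near Epb4.2, chr2:120868092-120868191: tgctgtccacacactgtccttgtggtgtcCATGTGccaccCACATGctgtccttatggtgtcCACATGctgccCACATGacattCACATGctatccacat
near Camk2b, chr11:5971528-5971627: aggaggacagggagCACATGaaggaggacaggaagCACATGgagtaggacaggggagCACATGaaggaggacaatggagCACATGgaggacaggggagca
near Nkain2, chr10:31548388-31548487: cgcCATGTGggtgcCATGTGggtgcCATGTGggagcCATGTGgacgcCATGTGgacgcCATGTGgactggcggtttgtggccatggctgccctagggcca
near Dyrk1a, chr16:94963456-94963555: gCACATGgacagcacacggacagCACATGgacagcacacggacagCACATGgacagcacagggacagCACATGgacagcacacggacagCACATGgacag
near 1190002H23Rik, chr14:79705018-79705117: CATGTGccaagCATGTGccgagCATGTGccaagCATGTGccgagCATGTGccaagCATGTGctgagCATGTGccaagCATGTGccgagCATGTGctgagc
near Anxa5, chr3:36292790-36292889: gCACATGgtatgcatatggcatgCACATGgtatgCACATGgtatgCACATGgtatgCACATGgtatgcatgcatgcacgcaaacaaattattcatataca
The repeat unit differs between these sites. All hold CACATG because only sites with 6 or more copies were taken.

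None of these 6 sites was called before OHT. The site 73245 bp from the TSS of Dyrk1a, a kinase gene, had 111 and 324 tags at 10 and 20 min, 1125 at 30 min, 555 at 2 h and 1305 at 4 h. The site near Camk2b, a calmodulin-dependent kinase, had 80, 177, 652, 281 and 1027 tags at these 5 times, and the one near 1190002H23Rik 105, 255, 775, 398 and 978. The sites near Epb4.2, an erythrocyte membrane protein, near Nkain2 and near Anxa5, a phospholipid-binding annexin, were first called at 20 min. They had 386, 271 and 246 tags at 30 min, 142, 125 and 140 at 2 h, and 543, 350 and 351 at 4 h. The choice of these 6 by lowest ratio fixed the fall between 30 min and 2 h. It also favours more tags at 4 h than at 2 h, which each of the 6 had, since both comparisons use the 2 h value.

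Of the 21 array sites, 3 were called at 0 min, 12 and 17 at 10 and 20 min and all 21 at 4 h, and 1 had an RNAPII peak of 2 h over it. Tags at 4 h exceeded those at 2 h at 17 of the 21, although the 4 h library was the smaller one. The same held at 1109 of 20180 other paired sites with 1 peak at 4 h (5.50%). The 21 include the 8 sites picked for a low ratio of 2 h over 30 min. That choice favours more tags at 4 h than at 2 h, so the 2 shares are not on equal terms. Other sites that were not called at 0 min and had 200 or more tags at 30 min numbered 14. Of the 13 with 1 peak at 4 h, 6 had more tags at 4 h than at 2 h (46.2%). In this smaller set the median ratio of 2 h over 30 min was 1.11 and that of 4 h over 2 h 0.925, against 0.737 and 1.34 at the array sites. The 21 array sites were not held to these limits. Of them 3 were called at 0 min, and their tags at 30 min went down to 43. The median over all paired sites with fewer than 6 CACATG was 127 tags at 30 min, 177 at 2 h and 135 at 4 h. Over the array sites it was 246, 140 and 239. At 4 of the 21, near Afap1, Cbx7, Pisd and Ank2, tags were higher at 2 h. These sites lie in tandem repeats, where the placing of reads on the reference depends on the aligner, and its part in the result was not tested.

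**Figure D5:**
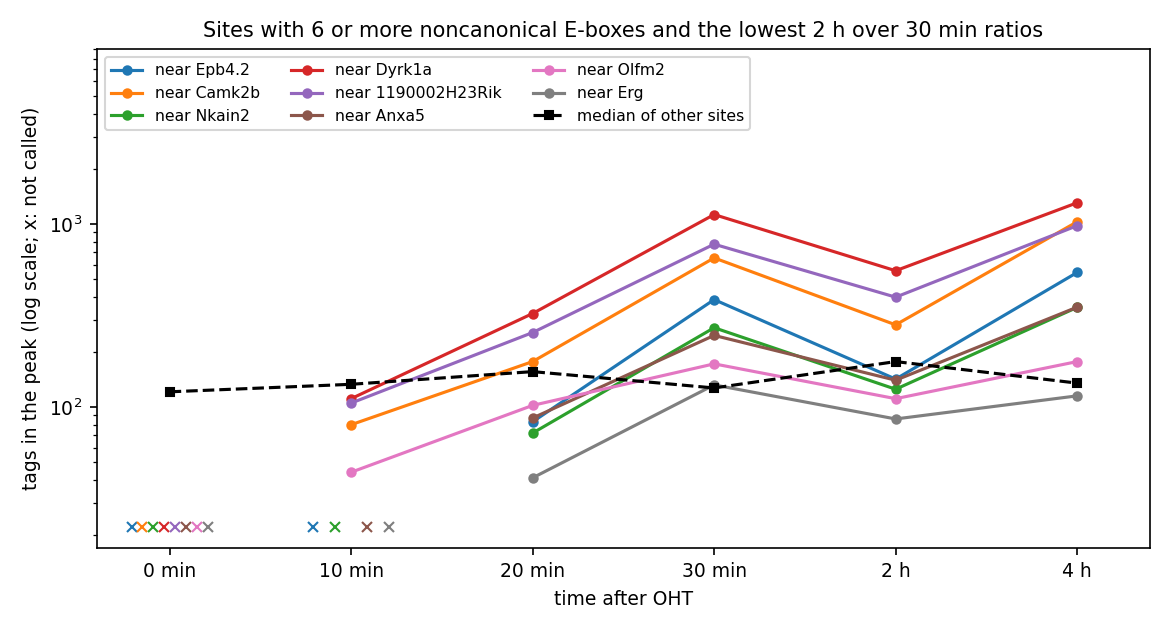
Tags in the peak (vertical axis, log scale) at 6 times after OHT (horizontal axis) for the 8 sites with 6 or more noncanonical E-boxes and the lowest ratio of 2 h over 30 min, named by the nearest protein-coding gene; crosses at the bottom mark times with no peak, and the dashed line is the median of the other paired sites. The site near Dyrk1a has 1125 tags at 30 min, 555 at 2 h and 1305 at 4 h, while the dashed line is highest at 2 h, at 177.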

How the data were processed

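Myc and RNA polymerase II ChIP-seq of 3T9 fibroblasts was deposited as peak lists, 1 list per library. The submitters' processing notes name BWA 0.6.2-r126 and build mm9. MACS 1.4.2 called the Myc peaks and the narrow RNAPII peaks at p 1e-08 against a control, keeping 1 tag per position, and MACS 2.0.9 the broad RNAPII and Miz1 peaks, per the file headers. Each deposited Myc peak carries the authors' tag count, score (a multiple of −log10 of the caller's p), fold enrichment and false discovery rate as a percent. Deposited MACS 2.0.9 lists give pileup signal, fold enrichment and −log10 p and q values; only their positions were used. Depth was read from the file headers.

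Peaks were compared by 1 bp overlap. Summits were set against GENCODE vM1 on NCBIM37, a promoter being 1000 bp to either side of a TSS, and a gene counted as bound when a peak reached that window. Motifs were counted in 200 bp around the summit. Shares carry Wilson 95% intervals. Python 3.11.15, numpy 2.4.6, pandas 2.3.3, scipy 1.17.1 and matplotlib 3.10.9 were used, and overlap and motif counting were tested on simulated data. With 1 library per time no test between times was run. The lists and sites were chosen with earlier results of these data known. Genes were named by fold, the 12 highest called at 2 h only, those highest at 30 min only and the highest called at both times, with 5 known Myc targets. Of 416 listed symbols, 413 matched. Alternatives are given in the closing section. One site among the late sites and the sequence of another site are not reported here.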

Additional observations from a re-analysis of the deposited data

How the results depend on the processing

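No paired analysis was possible because each time has 1 library, and no library could be left out. Of 148 values under other settings 69 counted as unmoved and 79 as moved. Shares and distances were set against their interval, and tag ratios against the quartiles over sites, which are not an error. Gene counts have no interval. A share, count or distance has no sign to reverse, but the order of classes can turn. Of the 148, 7 come from alternatives chosen after seeing the data, among them 1 that moved. With equal numbers of peaks, 8.86% of 2 h and 7.23% of 30 min peaks were called at 1 time only, promoters held 18.2% of 2 h only and 45.2% of shared sites, RNAPII 18.2%, 10.1% and 54.7% (2 h only, 30 min only, shared), 2 h only summits lay 9984 bp from a TSS, 52.3% of them were present at 4 h and 76.0% at 20 min, and 293 and 140 genes were called at 2 h only and 30 min only. With a score of at least 100 in both lists, 1.95% of 30 min peaks were called at 30 min only, promoters held 16.0% and 45.8%, RNAPII 16.0%, 8.98% and 55.4%, and presence was 48.7% at 4 h and 69.1% at 20 min. Against the whole other list these were 14.4% (2 h) and 1.03% (30 min), promoter 16.1%, RNAPII 15.8% and 53.2%, distance 11001 bp, presence 42.2% and 63.5%. Cutting both lists at their median fold put sites called at both times into the classes of 1 time only. Then 3.14% of 30 min peaks were called at 30 min only, promoters held 38.7%, 28.5% and 59.7%, and CACGTG 10.3% and 21.8%. RNAPII lay over 47.3%, 33.5% and 72.8%, distances were 4643 and 7723 bp, presence 98.1% and 99.6%, and genes 1067 and 102.

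Allowing gaps of 1000 bp gave 17.6% and 2.17%, RNAPII 12.5% and a distance of 12853 bp. Matching summits within 500 bp gave 22.1% and 7.18%, promoters 19.2% and 34.0%, RNAPII 21.0% and 50.2%, distances of 10014 and 3542 bp, and presence of 41.9% and 59.6%, so that 30 min only sites ranked above 2 h only sites at promoters and for RNAPII and lay nearer to a TSS, the opposite of the order by overlap. Promoter windows of 500 bp gave 11.1%, 9.42% and 38.3%, and of 2000 bp 19.3%, 17.6% and 47.3%. With the summit at the promoter 166 genes were called at 30 min only. CACGTG in 100 bp gave 5.51%, 7.61% and 11.4%, in 400 bp 10.1% (2 h only) and 18.4% (shared), and with CACGCG 10.2% and 25.6%. Broad RNAPII lists gave 8.22%, 2.90% and 46.5%, the RNAPII list of the other time 16.1% and 54.7%, and summits inside the RNAPII peak 13.5% and 51.6%. Sites with 6 or more CACATG in 400 bp had a median tag ratio of 0.865. The causes of these moves were not tested, except that fewer peaks enter the stricter lists. Every class share of weak sites depends on the caller's limit, and depth bounds which weak sites can be called.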
